A study of Mus musculus with 2 samples.

Results

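The Slc25 genes encode the carriers that move metabolites across the inner mitochondrial membrane, and their transcripts were followed here in islet cells of mice on a high-fat diet (HFD) or chow. All genes whose symbol in the gene table begins with Slc25a and a digit were taken, which gave 47 carriers of 27998 genes. The HFD library came from islets pooled from 5 wild-type C57BL/6J mice fed a 60% fat diet for 6 weeks after weaning, and the chow library from 4 such mice fed regular chow for the same time. Islets were picked by hand, cultured overnight and dispersed with trypsin, and RNA was captured by 10x Genomics 3' droplet chemistry. With 1 library per diet, and cells that cannot be assigned to single mice from the labels or files, no value below has a replicate check and no test of diet was possible.

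Each carrier exchanges or imports a few related compounds: ADP and ATP, phosphate, the di- and tricarboxylates, amino acids, acylcarnitines, nucleotides or cofactors. In beta cells, which couple glucose oxidation to insulin release, the ADP/ATP and phosphate carriers feed ATP synthesis and export, the aspartate-glutamate and oxoglutarate carriers pass reducing equivalents into mitochondria, and the citrate carrier exports carbon to the cytosol. The acylcarnitine carrier admits long-chain fatty acids for oxidation.

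Cells were typed from raw counts of unique molecular identifiers (UMIs), each of which stands for 1 captured RNA molecule. A beta cell had at least 20% of its UMIs from Ins1 and Ins2. Of the remaining cells, an alpha cell had at least 5% from Gcg, a delta cell at least 1% from Sst and a PP cell at least 15% from Ppy, the pancreatic polypeptide gene. An endothelial cell had at least 10 UMIs from Plvap, Kdr and Flt1. The HFD and chow libraries gave 2968 and 4372 beta, 374 and 740 alpha, 370 and 447 delta, 154 and 199 PP, and 121 and 165 endothelial cells. Another 213 HFD and 186 chow cells had no type. Median depth per deposited barcode was 13911 UMIs in the HFD and 12414 UMIs in the chow library, and 45 barcode sequences occurred in both. Summed markers of each type were highest in that type, but the sums include the genes that defined the types and are no separate check. Some other markers, such as Ttr and Irx2 in alpha and Hhex and Rbp4 in delta cells, were highest in their own type. The beta cell factor Mafa was nearly absent from beta cells (0.0802 HFD and 0.0743 chow counts per 1000000 UMIs, CPM). Lepr had 0 CPM in delta and Vtn 0 CPM in PP cells. Gc had 152 and 131 CPM in HFD and chow alpha, 144 and 156 CPM in delta and 159 and 174 CPM in PP cells. Delta cells also carried 148986 and 151545 CPM of PP markers in the HFD and chow libraries, more than the 77805 and 99307 CPM of their own markers. Endothelial cells carried 890 CPM of mesenchymal markers in the HFD and 2018 CPM in the chow library, whose part in any endothelial value was not tested.

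The results turn on 4 carriers, the phosphate carrier Slc25a3, the ADP/ATP carriers Slc25a4 and Slc25a5 and the pyrimidine nucleotide carrier Slc25a33, and their promoters are shown. Of these only Slc25a33 was far scarcer in beta cells than in the other types. No link between promoter letters and level was tested. Each line gives the 250 bases before the RefSeq start (GRCm38.p6), 5′ to 3′ on the gene's strand. Capitals mark matches, on either strand, to the NRF1 motif, the ETS core CGGAAG, the CCAAT box or the GC box GGGCGG.
Slc25a3 (chr10:91123968-91124217, minus strand): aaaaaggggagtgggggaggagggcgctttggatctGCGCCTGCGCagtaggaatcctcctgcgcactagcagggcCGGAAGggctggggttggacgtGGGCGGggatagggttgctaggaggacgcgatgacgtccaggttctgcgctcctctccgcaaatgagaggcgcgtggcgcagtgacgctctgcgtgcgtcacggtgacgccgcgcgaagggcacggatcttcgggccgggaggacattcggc
Slc25a4 (chr8:46211063-46211312, minus strand): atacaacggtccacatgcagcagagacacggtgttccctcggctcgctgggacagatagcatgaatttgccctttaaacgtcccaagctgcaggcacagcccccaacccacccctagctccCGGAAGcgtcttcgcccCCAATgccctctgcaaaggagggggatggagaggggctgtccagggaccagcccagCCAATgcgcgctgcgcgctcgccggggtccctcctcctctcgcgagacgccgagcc
Slc25a5 (chrX:36795347-36795596, plus strand): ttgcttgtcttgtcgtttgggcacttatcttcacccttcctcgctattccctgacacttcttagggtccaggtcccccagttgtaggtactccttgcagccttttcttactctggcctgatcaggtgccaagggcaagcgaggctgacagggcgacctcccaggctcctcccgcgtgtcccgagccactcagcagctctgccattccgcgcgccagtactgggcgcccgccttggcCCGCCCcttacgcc
Slc25a33 (chr4:149774268-149774517, minus strand): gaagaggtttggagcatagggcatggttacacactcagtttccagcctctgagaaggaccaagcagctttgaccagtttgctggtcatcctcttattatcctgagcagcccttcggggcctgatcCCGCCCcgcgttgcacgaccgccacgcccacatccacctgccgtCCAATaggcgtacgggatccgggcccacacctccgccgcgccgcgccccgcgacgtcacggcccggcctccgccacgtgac

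The phosphate carrier promoter held an NRF1 match beginning 214 bases, an ETS core 174 bases and a GC box 152 bases before the start. The Slc25a4 promoter held an ETS core 129 bases and CCAAT boxes 112 and 56 bases before the start, whereas that of Slc25a5 held a single GC box 14 bases before it. The Slc25a33 promoter held a GC box at 125 and a CCAAT box at 81 bases. RefSeq windows reaching from 250 bases before to 50 after the start were available for 36 of the carriers, in 46 windows. The GC box was present in 82.6% of carrier windows, against 35.7% of all 32851 windows. Windows were not matched for base content, and the printed promoters have 61.6% to 66.4% G and C. Some carriers also gave more than 1 window, so these shares show no trait of carriers. The CCAAT box was in 47.8% of carrier and 37.4% of all windows, the ETS core in 23.9% and 16.9%, and the NRF1 motif in 4.35% and 4.6%. A match describes the letters only and is not a binding site, and no marked matches overlap in these promoters.

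Carrier transcripts made up a small and uneven part of the RNA. Their summed level in beta cells was 818 CPM in the HFD and 873 CPM in the chow library, from 40787 and 58741 UMIs. The other types held more: 1601 and 1590 CPM in alpha, 1898 and 1915 CPM in delta, 1129 and 1203 CPM in PP, and 2099 and 2425 CPM in endothelial cells of the HFD and chow libraries. Insulin alone took 53.4% of beta cell UMIs in the HFD and 52.5% in the chow library, which lowers every other gene's CPM there. As a share of UMIs outside the hormone genes, carriers were 0.205% in HFD and 0.222% in chow beta cells, 0.232% and 0.224% in alpha, 0.269% and 0.286% in delta, 0.248% and 0.283% in PP, and 0.216% and 0.249% in endothelial cells.

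Among carriers with Slc25a symbols, the same 3 genes led in every type. Family members under other symbols were outside this ranking. In beta cells Mtch1 had 199 CPM in the HFD and 193 CPM in the chow library, above Slc25a3 in both, and Ucp2 had 247 and 158 CPM. Slc25a3, Slc25a5 and Slc25a4 together held 40.4% of carrier UMIs in HFD and 50.8% in chow beta cells. Their joint share was 61.1% and 57.4% in alpha, 69.1% and 70.1% in delta, 60.7% and 65.8% in PP and 72.1% and 77.7% in endothelial cells. Slc25a3 ranked first in every type of both libraries except endothelial and HFD alpha cells. There Slc25a5, the ADP/ATP carrier of proliferating and non-muscle cells, ranked first, with 33.9% and 39.1% of carrier UMIs in HFD and chow endothelial cells and 24.6% in HFD alpha cells. At the other end, Slc25a21 and Slc25a54 gave no UMI in any kept cell. The plot of levels shows every carrier with a UMI.

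**Figure D1:**
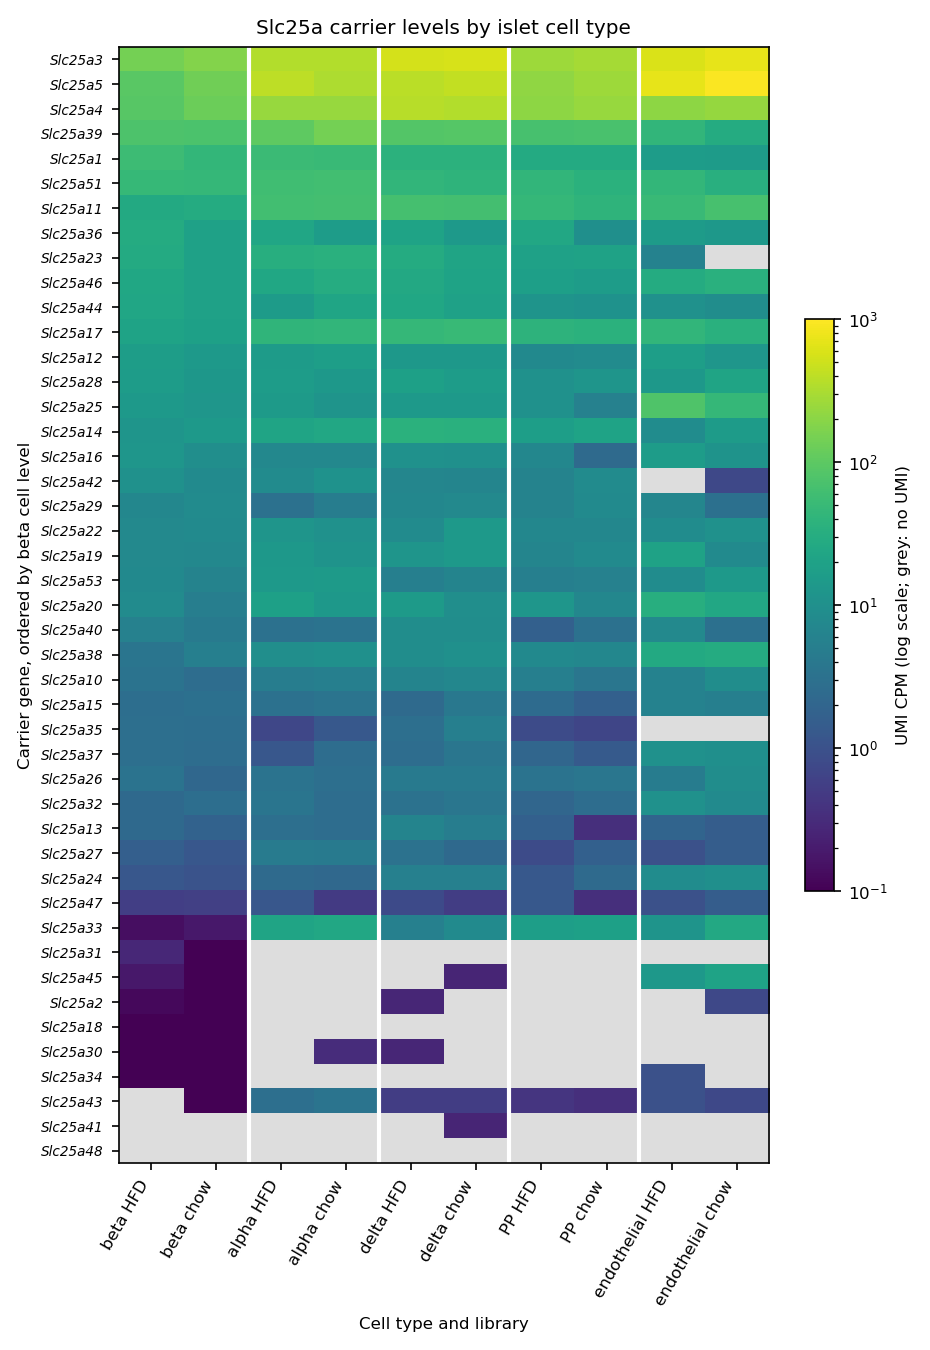
Level of each carrier with at least 1 UMI (rows, ordered by beta cell level) in each cell type and library (columns), in UMI counts per 1000000 on a log colour scale, with grey for no UMI. Slc25a3, Slc25a5 and Slc25a4 occupy the top rows in all 5 types, and Slc25a33 is dark in beta cells and bright in the others.

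In beta cells the carriers ranked next after those 3 were the glutathione carrier Slc25a39, at 76.2 CPM in the HFD and 73.2 CPM in the chow library, the citrate carrier Slc25a1, at 55.4 and 45.1 CPM, and the NAD+ carrier Slc25a51, at 48.6 and 46.5 CPM. Slc25a1 exceeded Slc25a51 in the HFD library, whereas their counting error overlapped in the chow library. These are levels of 3' tags, 1 per molecule, and so are not scaled by transcript length. Slc25a36, the other pyrimidine nucleotide carrier, Slc25a23, a calcium-regulated ATP-Mg/phosphate carrier, the oxoglutarate carrier Slc25a11 and Slc25a46, an outer-membrane member linked to mitochondrial fission, lay between 19.6 and 29.4 CPM in both libraries. A processed pseudogene of Slc25a5 is annotated in mouse, and reads shared among the close paralogs and their pseudogenes could have been split or dropped in counting.

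The first comparison set HFD against chow beta cells. Ratios of HFD over chow are given as log2 values relative to the median of all genes with at least 50 UMIs over both libraries, because that median itself lay at 0.19 (log2 CPM ratio) in beta cells. A carrier was counted when it lay past 1.5-fold. Of the 35 carriers compared, 3 were lower and 0 were higher in the HFD library, against 9.07% lower and 4.42% higher among the 12252 genes compared. The carriers' share past the fold was thus near that of all genes for lower values, and their median relative ratio was 0.00, with 17 above and 18 below the median of all genes.

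The 3 most abundant carriers with Slc25a symbols were lower in the HFD library by similar amounts. Slc25a5 stood at 93.3 CPM (95% Poisson interval 90.7 to 96.0) in HFD and 134 CPM (131 to 137) in chow beta cells, a relative log2 ratio of -0.72 (counting interval -0.77 to -0.67). Its partner in ADP/ATP exchange, Slc25a4, had 91.3 CPM (88.7 to 94) in HFD and 126 CPM (123 to 128) in chow cells, a ratio of -0.65 (-0.71 to -0.60). The phosphate carrier Slc25a3 had 146 CPM (142 to 149) in HFD and 184 CPM (181 to 187) in chow cells, a ratio of -0.53 (-0.57 to -0.49) that stopped short of 1.5-fold. The counting intervals of the libraries did not overlap for any of these genes, which speaks of counting error alone. The third carrier past the fold was Slc25a38, which imports glycine for haem synthesis, with 3.53 CPM in HFD and 5.35 CPM in chow cells and a ratio of -0.79 (-1.06 to -0.53).

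A few carriers lay on the other side. The carnitine/acylcarnitine carrier Slc25a20 had 8.44 CPM (7.65 to 9.29) in HFD and 5.14 CPM (4.61 to 5.71) in chow beta cells, a relative ratio of 0.52 (0.31 to 0.73), the highest of the 35 carriers. The S-adenosylmethionine carrier Slc25a26 followed with 3.39 CPM HFD, 2.18 CPM chow and a ratio of 0.44 (0.11 to 0.77), and is given because it is the next in order, chosen after its value was seen. Slc25a36 had 29.4 CPM (28.0 to 31.0) in HFD and 19.6 CPM (18.5 to 20.7) in chow cells, a ratio of 0.39 (0.29 to 0.50). None of these ratios reached 1.5-fold, and without centring on the median of all genes 3 carriers were past it in the HFD direction and 1 against it.

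**Figure D2:**
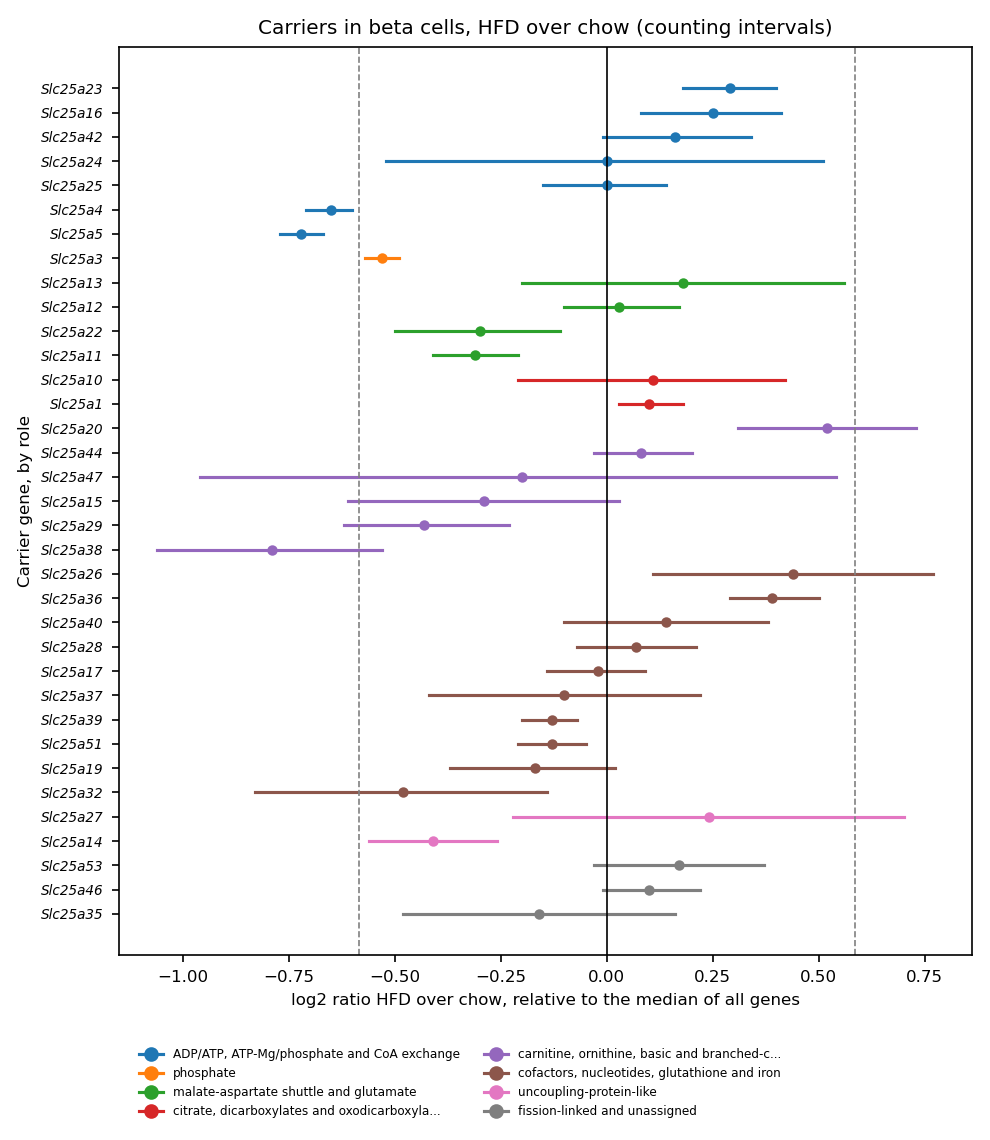
Relative log2 ratio of HFD over chow in beta cells for the 35 carriers with at least 50 UMIs (points, with 95% counting intervals as lines), grouped and coloured by role, with dashed lines at 1.5-fold. The points of Slc25a38, Slc25a5 and Slc25a4 lie left of the lower dashed line and no point lies right of the upper one.

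By role, the adenine nucleotide and CoA carriers did not move as a block. Of the 7 compared, 4 lay above and 3 below the median of all genes, with a median ratio of 0.00 and a range of -0.72 to 0.29. The upper end was Slc25a23, at 27.6 CPM in HFD and 19.7 CPM in chow beta cells. Slc25a42, the carrier of coenzyme A, had 10.6 CPM in HFD and 8.32 CPM in chow cells (ratio 0.16, counting interval -0.01 to 0.34). The ATP-Mg carriers Slc25a24 and Slc25a25 both had a ratio of 0.00.

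For the malate-aspartate shuttle, the median ratio over the 4 compared members was -0.13. The oxoglutarate carrier Slc25a11 had 26.7 CPM in HFD and 28.8 CPM in chow beta cells, a relative ratio of -0.31 (-0.41 to -0.21). Slc25a12, the calcium-sensitive aspartate-glutamate carrier of excitable tissues, had 17.0 CPM HFD and 14.5 CPM chow and a ratio of 0.03 (-0.10 to 0.17). Its liver-type counterpart Slc25a13 was scarcer, at 2.33 and 1.80 CPM in HFD and chow cells. Slc25a12 thus exceeded Slc25a13 in both libraries. The glutamate carrier Slc25a22 stood at 7.52 CPM in HFD and 8.12 CPM in chow cells.

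Both citrate-cycle exporters compared lay slightly above the median of all genes. The citrate carrier Slc25a1 had 55.4 CPM (53.4 to 57.6) in HFD and 45.1 CPM (43.5 to 46.8) in chow beta cells, which after centring left a ratio of 0.10 (0.03 to 0.18). The dicarboxylate carrier Slc25a10 had 3.31 CPM in HFD and 2.69 CPM in chow cells and a ratio of 0.11 (-0.21 to 0.42).

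Among the 6 compared carriers of carnitine and amino acids the median was -0.24, with 2 above and 4 below the median of all genes. Slc25a44, which imports branched-chain amino acids, had 23.2 CPM in HFD and 19.2 CPM in chow cells (ratio 0.08), and Slc25a29, a carrier of basic amino acids, had 7.22 and 8.49 CPM (ratio -0.43, -0.62 to -0.23). Of the 10 cofactor, nucleotide, glutathione and iron carriers compared, 4 lay above and 6 below, with a median of -0.06 and a range of -0.48 to 0.44. Slc25a39 and Slc25a51 both had a ratio of -0.13. The uncoupling-protein-like members Slc25a14 and Slc25a27 had ratios of -0.41 and 0.24. Slc25a46 and the unassigned Slc25a53 had ratios of 0.10 and 0.17.

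Where the 3 abundant carriers were lower depended on which beta cells were set side by side. Clustering of beta cells without any Slc25 gene gave 16 clusters, of which 5 had at least 100 cells in each library and held 51.5% of HFD and 51.1% of chow beta cells. Within these the relative ratio of Slc25a3 was -0.06, -0.12, 0.10, -0.03 and -0.20 in clusters 0, 4, 5, 7 and 8. For Slc25a4 it was 0.17, -0.48, 0.07, 0.10 and -0.14, and for Slc25a5 0.09, -0.41, -0.03, 0.08 and -0.26. No ratio of these genes reached 1.5-fold in any of the 5 clusters, and 3 of them for Slc25a4 and 2 for Slc25a5 lay above 0.

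Other beta cell clusters were found almost in 1 library alone. Cluster 2 held 31 HFD and 1253 chow cells and was led by the heat-shock genes Hspa1b and Hspa1a, and cluster 10 held 15 HFD and 374 chow cells and was led by Lrg1 and Lcn2. Chow cells of cluster 2 had 199 CPM of Slc25a3, 149 CPM of Slc25a4 and 156 CPM of Slc25a5, and those of cluster 10 had 251, 169 and 195 CPM. The 31 HFD cells of cluster 2 had 195, 152 and 152 CPM of the same genes. Cluster 3, with 774 HFD and 70 chow cells, had 127, 79.0 and 78.4 CPM in HFD cells and 137, 98.0 and 85.2 CPM in chow cells. Over the clusters plotted, chow levels were lowest in cluster 0 (106, 80.7 and 74.7 CPM of the 3 genes) and highest in cluster 10. A cluster mostly of 1 library may be that library and not a kind of cell, so diet and cluster cannot be told apart there. Clusters were formed from the cells of both libraries together, so differences between the libraries can also shape the 5 shared clusters and the ratios within them. The part of cluster make-up in the whole-type values was not tested.

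The heat-shock transcript Hspa1a was lower in HFD than in chow cells of every beta cell cluster plotted. It stood at 34.6 CPM in HFD and 98.1 CPM in chow cells of cluster 2, and at 2.35 and 5.84 CPM in cluster 3. In the shared clusters it stood at 2.13 CPM in HFD and 24.2 CPM in chow cells of cluster 0, and at 18.2 and 64.0 CPM in cluster 4. Clusters 5, 7 and 8 had 3.99, 2.14 and 1.34 CPM in HFD cells and 26.1, 18.6 and 36.1 CPM in chow cells. Over beta cells without a UMI of Hspa1a or Hspa1b, ratios were -0.34 for Slc25a3, -0.43 for Slc25a4 and -0.51 for Slc25a5, all short of 1.5-fold. Hspa1a was higher in chow cells and deep cells are likelier to hold a UMI, so this filter can remove unlike cells from each library. The part of the heat-shock transcripts in the whole-type values was not tested.

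**Figure D3:**
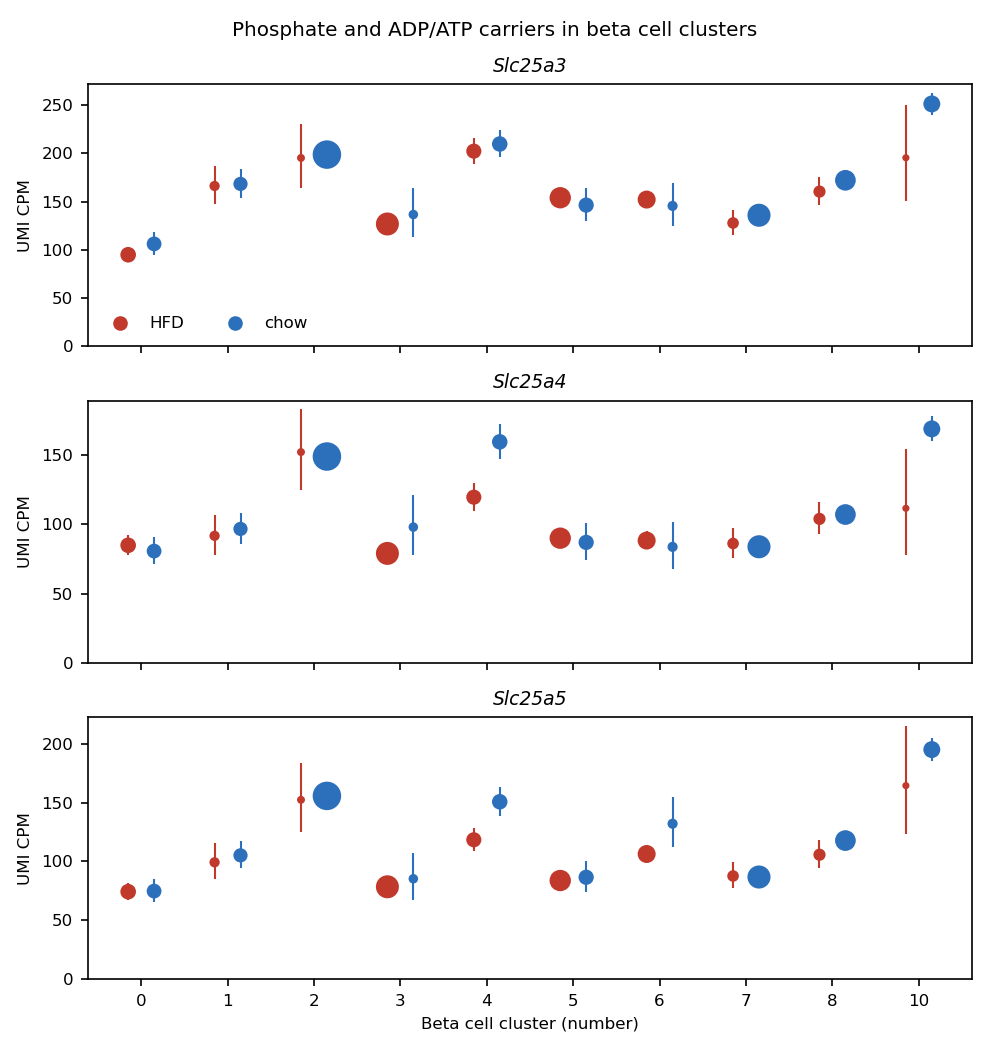
Level of Slc25a3, Slc25a4 and Slc25a5 (UMI counts per 1000000, y axis) in each beta cell cluster (x axis) in the HFD (red, left) and chow (blue, right) libraries, with 95% Poisson intervals as lines and dot area growing with the number of cells. The dots of both libraries lie close together in most clusters. Clusters 2 and 10, large in chow alone, lie high, as does cluster 4, which both libraries share.

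Within the same clusters Slc25a20 had relative ratios of -0.03, 0.87, 0.46, 0.09 and 0.47 in clusters 0, 4, 5, 7 and 8, and Slc25a36 had 0.12, 0.65, 0.04, 0.14 and 0.43. In cluster 4, Slc25a20 had 13.6 CPM in HFD and 7.03 CPM in chow cells, and Slc25a36 had 34.0 and 20.6 CPM. As point values, ratios of both genes were thus smaller in clusters 0 and 7 than over all beta cells, and larger in cluster 4. Slc25a20 rested on 37 HFD and 21 chow UMIs in cluster 0, 62 and 28 in cluster 4 and 55 and 12 in cluster 5. Clusters 7 and 8 gave 13 and 24 HFD and 50 and 55 chow UMIs of Slc25a20. No counting intervals were computed for cluster ratios, so differences between clusters are uncertain. In cluster 0 the levels were 6.06 and 6.59 CPM of Slc25a20 and 19.8 and 19.5 CPM of Slc25a36 in HFD and chow cells. Slc25a38, at 1.51 to 6.03 CPM in these clusters, was irregular, with ratios of -0.93, -0.32, 0.93, -0.93 and -0.01. In clusters 0, 4 and 5 it fell short of the minimum of 50 UMIs, so those ratios rest on few counts and give no direction. The ratio in cluster 7 also rests on few counts, with 2.14 CPM in only 135 HFD cells.

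Slc25a20 and Slc25a36 were also higher in the HFD library in the other endocrine types. Slc25a20 had 18.9 CPM in HFD and 13.6 CPM in chow alpha cells, 14.9 and 9.49 CPM in delta cells and 12.5 and 7.17 CPM in PP cells. Relative to the median of all genes these are log2 ratios of 0.48 (0.02 to 0.94), 0.56 (-0.06 to 1.21) and 0.71 (-0.14 to 1.60). Slc25a36 had 23.2 CPM in HFD and 16.0 CPM in chow alpha cells, 20.7 and 14.0 CPM in delta cells and 25 and 9.90 CPM in PP cells. Its relative ratios were 0.55 (0.13 to 0.96), 0.48 (-0.04 to 1.02) and 1.24 (0.59 to 1.94). Of 15 carriers compared in all of beta, alpha, delta and PP cells, these 2 lay above 1.2-fold in each type, a threshold chosen after the values were seen, against 2.17% of the 5635 genes compared there. None of the 15 lay below 1.2-fold in each type, against 1.54% of genes. The types share the same pair of libraries, so their ratios are not independent. In endothelial cells Slc25a20 had 32.0 CPM in HFD and 24.7 CPM in chow cells (ratio 0.35, -0.39 to 1.09).

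In alpha cells 0 of 25 carriers compared were higher past 1.5-fold and 0 lower, against 4.55% higher and 4.97% lower among all genes. The abundant carriers did not have the beta cell pattern: Slc25a3 had 342 CPM in both libraries, Slc25a4 243 CPM in HFD and 244 CPM in chow, and Slc25a5 394 CPM in HFD and 327 CPM in chow cells. The relative ratio of Slc25a5 was 0.28 (0.19 to 0.38). Slc25a39 lay at the lower end, with 100 CPM in HFD and 144 CPM in chow alpha cells (ratio -0.51, -0.68 to -0.34), beside Slc25a44 with 15.8 and 22.7 CPM (ratio -0.50, -0.95 to -0.08).

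In delta cells 0 of 26 carriers were higher and 2 were lower past the fold, against 4.79% and 2.7% of genes. The lower ones were the glutamate carrier Slc25a22, with 8.49 CPM from 32 UMIs in HFD and 14.5 CPM from 55 UMIs in chow cells (ratio -0.84, -1.53 to -0.20), and Slc25a33, with 5.57 and 8.17 CPM and a counting interval of -1.51 to 0.21 that includes 0. Slc25a3 had 551 CPM in HFD and 565 CPM in chow delta cells, Slc25a4 377 and 348 CPM, and Slc25a5 382 and 428 CPM. Their ratios were -0.12, 0.03 and -0.25.

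Among PP cells 2 of 16 carriers, Slc25a20 and Slc25a36, were higher and 0 were lower past the fold, against 8.08% and 4.7% of genes. Slc25a20 had 30 HFD and 21 chow UMIs there, and its counting interval includes 0. The 3 abundant carriers lay below the median, with Slc25a3 at 264 CPM in HFD and 293 CPM in chow cells (ratio -0.24), Slc25a4 at 207 and 238 CPM (-0.28) and Slc25a5 at 214 and 260 CPM (-0.36). In PP cells the alpha markers summed to 6217 CPM in the HFD and 4525 CPM in the chow library.

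Endothelial cells gave 2 carriers of 11 higher and 0 lower past the fold, against 6.9% and 4.42% of genes. Slc25a25, a calcium-regulated ATP-Mg/phosphate carrier, had 78.7 CPM in HFD and 46.4 CPM in chow cells (ratio 0.74, 0.24 to 1.24). Slc25a39 had 43.7 and 28.4 CPM (0.59), with a counting interval of -0.06 to 1.26 that includes 0. Slc25a5 had 711 CPM in HFD and 948 CPM in chow cells (-0.44, -0.57 to -0.30), and Slc25a3 596 and 706 CPM (-0.27).

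The second comparison set each type against beta cells within a library, with the log2 ratio relative to the median of all genes and a carrier counted when it lay past 2-fold the same way in both libraries. The libraries differ in diet and are not replicates. In alpha cells 2 of 35 carriers were higher and 2 lower, against 5.04% and 8.54% of genes. In delta cells 1 of 34 was higher and 3 lower (6.77% and 7.38% of genes), and in PP cells 0 were higher and 1 lower (5.34% and 8.0%). Endothelial cells had 5 higher and 7 lower of 34, against 21.4% and 25.4% of genes. These shares were close to or below those of all genes, so the family as a whole did not stand out between types. The lower carrier in PP cells was Slc25a35, from 2 UMIs in each library, with an HFD counting interval of -4.86 to 0.08 that includes 0. It was also 1 of the 7 lower in endothelial cells, where it had no UMI, so its count there rests on the added 0.5 counts.

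Slc25a33, an importer of pyrimidine nucleotides that other work ties to mitochondrial DNA replication and transcription, was far scarcer in beta cells than in the other types, of which only alpha cells reached the minimum of 50 UMIs in both libraries. Alpha cells held 22.0 CPM (92 UMIs) in the HFD and 25.2 CPM (159 UMIs) in the chow library. Beta cells held 0.140 CPM and 0.178 CPM, from 7 and 12 UMIs, although they were the most deeply sampled type. The CPM ratio of alpha over beta cells was 157 (counting interval 73.1 to 401) in the HFD and 141 (78.7 to 279) in the chow library. Delta cells stood between, with 5.57 CPM in HFD and 8.17 CPM in chow, and PP cells had 17.5 and 19.1 CPM. Endothelial cells had 11.7 and 25.5 CPM from 12 and 34 UMIs. In order of level, alpha and PP cells overlapped within their counting intervals in each library, delta cells lay below both, and beta cells lay far below all other types, with the few endothelial UMIs giving wide intervals.

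With cells thinned to 4000 UMIs, 9.63% of HFD and 9.66% of chow alpha cells had a UMI of Slc25a33, against 0 of 2968 HFD beta cells and 0.046% of chow beta cells. At that reduced depth 0 cells allows a share of up to 0.101% of cells with a UMI, which is no limit on cells expressing the gene. Without thinning the shares were 21.1% and 18.8% in HFD and chow alpha cells and 0.236% and 0.252% in beta cells, at median depths of 10894 and 8368 UMIs in alpha and 16758 and 14653 UMIs in beta cells. Free RNA scaled to the insulin in alpha cells would account for 0.0222% of their Slc25a33 UMIs in the HFD and 0.0326% in the chow library. That estimate gives free RNA the beta cell profile, so it had to be near 0 for a gene scarce in beta cells. Free RNA from other types was not tested. Beta cells held 690 and 933 CPM of Gcg in the HFD and chow libraries. The part of alpha cell RNA in their Slc25a33 UMIs was not tested. In contrast to Slc25a33, its paralog Slc25a36, which carries the same class of substrates, was not scarcer in beta cells. It had 23.2 and 16.0 CPM in alpha and 29.4 and 19.6 CPM in beta cells of the HFD and chow libraries.

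Slc25a43, a member without an assigned substrate picked after its values were seen, was also scarcer in beta than in alpha cells. Alpha cells had 12 UMIs (2.87 CPM) in the HFD and 22 UMIs (3.49 CPM) in the chow library. Beta cells had 0 UMIs in the HFD and 1 UMI in the chow library, so alpha cells were at least 47.7-fold higher in the HFD library by a floor of 3 counts over the beta cells, which takes the 12 alpha UMIs as exact. With their counting error the interval of that ratio begins at 33.2. In the chow library the ratio was 235 (37.9 to 9689). PP cells had 1 UMI in each library and delta cells 2. The uncoupling-protein-like Slc25a27 had 4.54 CPM in HFD and 4.28 CPM in chow alpha cells, against 1.62 and 1.2 CPM in beta cells. Lower in alpha cells were Slc25a29, with 3.11 CPM in HFD and 4.92 CPM in chow alpha cells and 7.22 and 8.49 CPM in beta cells, and the unassigned Slc25a35, with 0.718 and 1.27 CPM in alpha and 2.89 and 2.82 CPM in beta cells. The alpha values of Slc25a35 came from only 3 HFD and 8 chow UMIs. Its relative log2 ratios had wide intervals, -4.71 to -0.84 in the HFD and -2.96 to -0.72 in the chow library.

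Delta cells were the endocrine type with most phosphate carrier, at a relative log2 ratio over beta cells of 1.24 in the HFD and 0.90 in the chow library. The citrate carrier Slc25a1 was lower in delta than in beta cells, with 37.7 and 36.9 CPM in HFD and chow delta cells and 55.4 and 45.1 CPM in beta cells, which gives relative ratios of -1.23 and -1.0. Slc25a42 (6.90 and 6.59 CPM in HFD and chow delta cells) and Slc25a36 (20.7 and 14.0 CPM) were also counted as lower. Slc25a24, an ATP-Mg/phosphate carrier, was higher, with 5.57 CPM in HFD and 5.53 CPM in chow delta cells, against 1.22 and 1.07 CPM in beta cells.

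In endothelial cells, where the carriers counted were fewer than the share of all genes, Slc25a38 stood at 27.2 and 28.4 CPM in HFD and chow endothelial cells, against 3.53 and 5.35 CPM in beta cells, and Slc25a20 at 32.0 and 24.7 CPM, against 8.44 and 5.14 CPM. Slc25a24 had 8.74 and 9.73 CPM there. Slc25a45, a member of the carnitine and basic amino acid branch chosen after its values were seen, had 13.6 CPM from 14 UMIs in HFD and 21.0 CPM from 28 UMIs in chow endothelial cells, and no UMI in alpha or PP cells. Beta cells had 9 UMIs of it in the HFD and 6 in the chow library. Cells of no type had 11.4 CPM of it in the HFD and 8.39 CPM in the chow library. The opposite holds for Slc25a1, with 16.5 and 15.7 CPM in HFD and chow endothelial cells, and Slc25a44, with 10.7 and 8.98 CPM. Slc25a23 had 5.83 CPM from 6 UMIs in HFD endothelial cells and no UMI in chow endothelial cells, which were at least 8.79-fold lower than chow beta cells by the floor of 3 counts. Slc25a42 had no UMI in HFD and 1 UMI in chow endothelial cells, at least 3.65-fold lower than beta cells in the HFD library. Slc25a35 had no UMI in either, which at this depth sets no bound of interest.

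**Figure D4:**
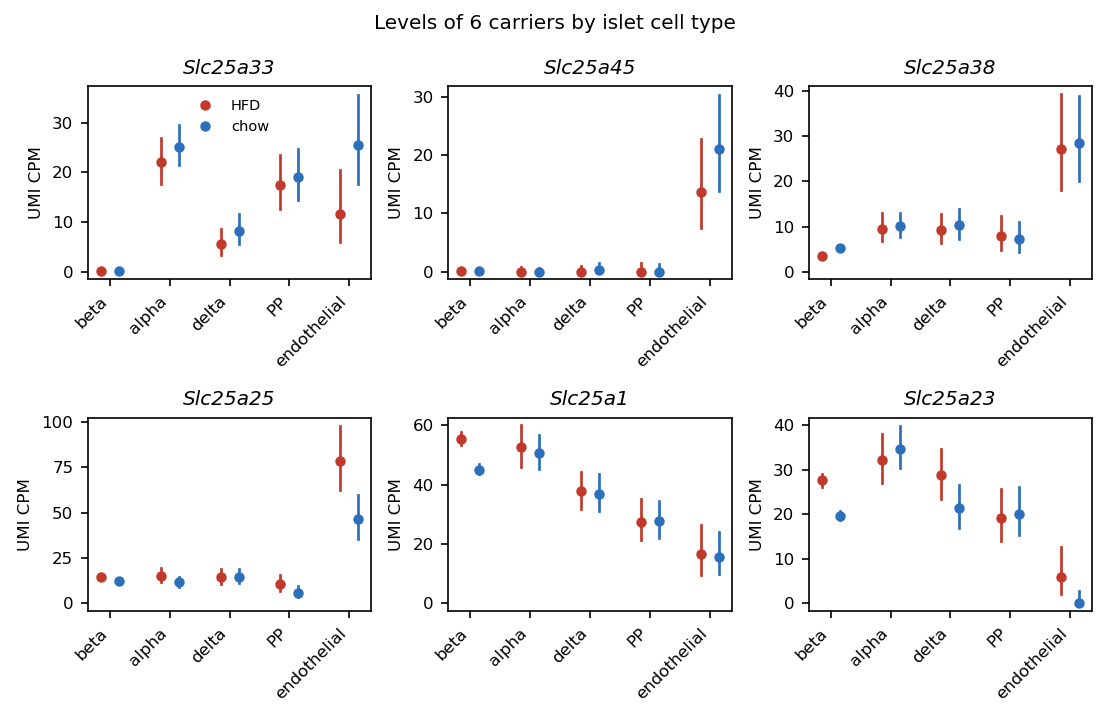
Level (UMI counts per 1000000, y axis) of Slc25a33, Slc25a45, Slc25a38, Slc25a25, Slc25a1 and Slc25a23 in each cell type (x axis) in the HFD (red, left) and chow (blue, right) libraries, with 95% Poisson intervals as lines. Slc25a33 is at the bottom of the axis in beta cells alone, and Slc25a45 lies above it in endothelial cells alone.

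Genes that work beside the carriers were read in the same beta cells, over the whole type only. Their ratios were not computed within clusters or over cells without heat-shock UMIs. The mitochondrial pyruvate carrier subunits, which belong to another family, were lower in the HFD library: Mpc1 had 36.7 CPM in HFD and 56.8 CPM in chow cells (relative ratio -0.82, -0.91 to -0.74) and Mpc2 had 49.7 and 70.2 CPM (-0.69, -0.76 to -0.62). With the porins Vdac1, Vdac2 and Vdac3 of the outer membrane, 0 of the 5 lay above and 5 below the median of all genes, with 2 lower past 1.5-fold, beside the 9.07% of all genes lower in beta cells. Vdac1 lay at the median within counting error (-0.04, -0.12 to 0.03). Of the 10 enzymes of malate-aspartate and pyruvate-citrate cycling, 3 lay above and 7 below, and 2, both malate dehydrogenases, were lower past the fold. Counting intervals of Got2, Glud1 and Idh1 among those below, and of Me1 and Pcx among those above, include 0. The mitochondrial enzyme Mdh2 had 44.1 CPM in HFD and 87.4 CPM in chow cells (-1.18, -1.25 to -1.11) and the cytosolic Mdh1 93.1 and 138 CPM (-0.76). ATP citrate lyase, Acly, which uses exported citrate, had 963 CPM in HFD and 771 CPM in chow cells (0.13, 0.11 to 0.14).

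The import machinery that inserts carriers through the TIM22 complex gave 0 of 7 genes above and 7 below the median of all genes, with a median of -0.45 and 1 lower past the fold, beside the same 9.07% of all genes. That 1 was the small chaperone Timm9 (10.1 CPM in HFD and 14.0 CPM in chow cells). Of the 7, Tomm70a lay at the median within counting error (-0.04, -0.16 to 0.07). The calcium uniporter genes had a median of 0.02, with the regulator Smdt1 lowest at 230 CPM in HFD and 286 CPM in chow cells (-0.51). Members of the same protein family under other symbols went both ways. The uncoupling protein Ucp2 had 247 CPM in HFD and 158 CPM in chow beta cells (0.45, 0.42 to 0.49), whereas the outer-membrane insertase Mtch2 had 53.7 and 68.6 CPM (-0.55, -0.61 to -0.48). Ucp1, the brown-fat uncoupling protein, gave 0 UMIs in HFD and 3 in chow beta cells.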

How the data were processed

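The deposited matrices hold raw UMI counts per gene and barcode, not normalized, per the labels' protocols and the values. Per the submitters' processing notes Cell Ranger 2.1.0 made them, from a build and an annotation not given in the sources used here. The libraries held 4539 HFD barcodes with 68544729 UMIs and 6509 chow barcodes with 89292222 UMIs. Barcodes under 500 genes or over 10% mitochondrial UMIs were removed (145 HFD, 122 chow). The automatic Scrublet threshold marked 0.0228% of HFD and 0.047% of chow barcodes and so had not worked, and the top 5% of scores were removed instead (194 HFD, 278 chow), which left 4200 HFD and 6109 chow cells. Of these, 66 HFD and 85 chow cells met more than 1 type rule and were kept in the first, in the order beta, alpha, delta, PP, endothelial.

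UMIs were summed per type and library and expressed as CPM. Log2 ratios were taken with 0.5 counts added and centred on the median of all genes with at least 50 UMIs over the groups compared. Poisson intervals for levels and conditional binomial intervals for ratios are exact, at 95%, and cover counting error only. Cells are not replicates, so no test across cells was made. The computation was tested on simulated data. Beta cells were clustered without Slc25 genes on 2000 variable genes, 30 components and 15 neighbours at resolution 1 (scanpy 1.11.5, igraph 0.11.9, Python 3.11.15). TMM factors (edgeR 4.0.16, R 4.3.3) served as an alternative, beside other scalings, minima, barcode filters, type thresholds, thinning to 4000 UMIs and weighting cells equally. Promoters come from RefSeq.

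Members, lists and thresholds were chosen with earlier results of these data known. Named carriers are the 10 highest in beta cells, those past a fold in any comparison and the 2 highest of each role list. Others named are said to have been chosen after their values were seen or illustrate a role. For other lists the 2 genes with most UMIs and the 2 with the largest difference were eligible. Mcub and Timm29 are not in the gene table.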

Additional observations from a re-analysis of the deposited data

Results flagged for a closer look

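Some carriers had HFD over chow ratios that differed between cell types of the same pair of libraries. Each pair below has 1 type past 1.5-fold, ratios of opposite sign and counting intervals that do not overlap. Several of the intervals include 0 (Slc25a4 in alpha and delta cells, Slc25a39 in endothelial cells), so an opposite direction is not shown for those. None of these differences was tested, since each diet has 1 library. Slc25a4 had a relative log2 ratio of -0.65 in beta cells, set against 0.01 in alpha cells and 0.03 in delta cells. Slc25a5 had -0.72 in beta cells and 0.28 in alpha cells. Slc25a39 had 0.59 in endothelial cells, from 45 HFD and 38 chow UMIs, set against -0.13 in beta cells and -0.51 in alpha cells.

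A signal also appeared in cells that no comparison used. Slc25a48 stood at 2.63 CPM in HFD and 0.599 CPM in chow barcodes of no type, from only 6 and 1 UMIs, and had no UMI in the 5 types. The barcodes of no type are a mixture, with macrophage markers at 13394 and 10320 CPM, mesenchymal at 5543 and 3343 CPM, acinar at 4343 and 7477 CPM and ductal at 3887 and 2260 CPM in the HFD and chow libraries, whose part in this value was not tested.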

How the results depend on the processing

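Of 808 values of single carriers under alternatives, 30 changed sign, 25 of them within beta cell clusters. For carriers past a fold there were 5 such changes, namely Slc25a4 in beta clusters 0 (0.17), 5 (0.07) and 7 (0.10) and Slc25a5 in clusters 0 (0.09) and 7 (0.08), where the cause was not tested. In beta cells, the carriers lower past 1.5-fold (3 of 35) numbered 1 without centring, 5 of 43 with no minimum count, 0 of 22 in cluster 0, 0 of 24 in cluster 4, 2 of 24 in cluster 5, 1 of 25 in cluster 7 and 1 of 26 in cluster 8. Those higher (0) numbered 3 without centring, 5 with no minimum count, 2 after thinning and 2 in cluster 4. The median of 0.00 became 0.19 without centring and -0.15 in cluster 4. In the other types, the carriers lower (2 of 78 carrier and type pairs) numbered 1 without centring, 22 of 155 with no minimum, 0 of 31 with a minimum of 200 UMIs and 1 without cells that met several type rules. Those higher (4) numbered 15, 0 and 2 with no minimum, with 200 UMIs and after thinning. Against beta cells, the 8 higher of 137 numbered 5 on CPM without hormone genes, 17 with no minimum and 4 with 200 UMIs, and the 13 lower numbered 22 on CPM without hormone genes, 20 with TMM factors, 25 with no minimum and 8 with 200 UMIs. Fewer or more carriers entered when the minimum was changed.

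No paired analysis was possible because each diet has 1 library. Depth limits the rarer types: carriers with few UMIs in PP and endothelial cells could not be compared, and no setting can separate diet from library, mouse pool or handling.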
